A study of Homo sapiens with 18 samples.

Results

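The late transcriptional response to TGFβ in lung cancer cells with silenced atypical protein kinase C is described here by a comparison of 24 h with 8 h after the start of treatment. Both groups were A549 cells, an established line from a human lung adenocarcinoma, that carried siRNA against PKCiota and PKCzeta (siPKCiz). The comparison used the 6 arrays of these groups, 3 per time, out of 18 arrays in the series. The other 12 arrays were siPKCiz cells without TGFβ and cells with a control siRNA (siControl) without TGFβ, at 8 h or at 24 h, again 3 per group. All genes with a single symbol on the array were included, which gave 18377 genes from 28869 probe sets.

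Cells were grown in 10% serum and then kept in 0.2% serum. TGFβ was given at 250 pM for 1 h and washed off, and the cells were kept for a further 7 h or 23 h, so the groups are named for 8 h and 24 h in all. From each sample 200 ng of RNA was used for a whole-transcript expression array. The labels call the 3 samples of a group biological replicates without saying whether they came from separate cultures, so p-values measure only the spread between these samples. No time is given for the untreated arrays, so time since TGFβ cannot be told apart from time in low serum or since transfection. RNA came from whole cultures, in which fewer cells of a type and less RNA per cell cannot be told apart.

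TGFβ binds a receptor kinase pair that phosphorylates SMAD2 and SMAD3, which move to the nucleus with SMAD4 and change transcription within hours. In epithelial cells the early SMAD targets are followed by slower changes in matrix, adhesion and cytoskeletal genes known as the epithelial-mesenchymal transition. PKCiota and PKCzeta, encoded by PRKCI and PRKCZ, are the atypical isoforms that work with PAR6 and PAR3 in cell polarity, and PAR6 is also a substrate of the TGFβ receptor.

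Values are deposited intensities on a linear scale that had been normalised across arrays. Array medians lay between 156 and 161. Fold changes are differences of mean log2 intensity, with a standard error (SE) from a limma fit over all 18 arrays. A gene was called where its Benjamini-Hochberg adjusted p over the 18377 genes was below 0.05. Within each of the 6 groups, replicates 2 and 3 correlated more closely with each other than with replicate 1. For the 24 h siPKCiz arrays, r across genes was 0.996 between replicates 2 and 3 and 0.993 and 0.994 between replicate 1 and these. At 8 h the corresponding values were 0.997, 0.994 and 0.994.

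The silenced genes were read first. PRKCI read 583, 621 and 554 at 8 h and 457, 571 and 558 at 24 h in siPKCiz cells. The log2 difference of siPKCiz minus siControl was -2.22 at 8 h (limma, adjusted p = 4.39e-11) and -2.34 at 24 h (adjusted p = 1.63e-11), where 5.41% and 3.19% of all genes differed. PRKCZ was measured nearer to the middle of the array, at 254, 153 and 153 at 8 h and 206, 189 and 152 at 24 h. Its difference from siControl was -1.04 at 8 h (limma, adjusted p = 0.018) and -1.10 at 24 h (adjusted p = 0.0167). These calls were lost when replicate number 2 or 3 was left out in every group, with differences of -0.85 and -0.85 at 8 h and -0.99 and -0.94 at 24 h. Leaving out array 2 or 3 of a single compared group also ended the call at either time. Between 8 h and 24 h neither gene was called, with log2 changes of -0.15 ± 0.0905 (SE, n = 3 per group) for PRKCI and 0.00 ± 0.243 for PRKCZ. As a check of the line, EPCAM, CDH1, KRT7, KRT8, KRT18 and KRT19 lay above the array median on 6 of 6 arrays, and the alveolar type 2 markers SFTPB and NKX2-1 on 0.

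Between 8 h and 24 h, 71 genes were higher and 77 lower in the silenced cells, 148 or 0.805% of the genes tested (0.386% higher and 0.419% lower). At an unadjusted p below 0.05 there were 2237 genes (12.2%). The called increases ran from 0.35 to 1.91 on the log2 scale with a median of 0.61, and the called decreases from -1.21 to -0.30 with a median of -0.55. Only 10 of the higher genes (0.0544%) and 9 of the lower genes (0.049%) changed by 2-fold or more. For each of the 148 genes the 3 arrays at 24 h did not overlap the 3 at 8 h, which was also true of 3371 genes (18.3%) over the whole array. Mean intensity lay below the median of all values for 16 of the 71 higher and 4 of the 77 lower genes, a range in which a fold on array intensities understates the change. With each array centred on its median, 188 genes were called, of which 33.0% were higher, against 48.0% here.

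Counts of called genes turned on which arrays were used, as the plot of counts with arrays left out shows. Without replicate number 1 in every group 299 genes were called, among them 114 of the 148. Without number 2 a single gene, HHLA2, was called, and without number 3 there were 11. Among the arrays compared, leaving out replicate 1 at 24 h left 25 genes, replicate 2 at 24 h 83, replicate 2 at 8 h 26 and replicate 3 at 8 h 84. The 15 most increased and 15 most decreased genes kept their direction in each of these fits. This was fixed in advance, because their 24 h and 8 h arrays do not overlap. All 30 remained called without replicate number 1, but 1 without number 2 and 8 without number 3. Leaving out only replicate 1 at 24 h kept 12 of the 30 calls, and only replicate 2 at 8 h kept 13. Of the 148 genes, 20 were called whichever 1 of the 6 arrays was left out, among them HHLA2, MYH15, SLN, SRPX, LUM, AGMO, FLRT2, CYP4F11, ALDH3A1, TM4SF4, TBXAS1, TFPI2 and CNTN1, and each of the other called genes described below lost its call without at least 1 array.

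**Figure D1:**
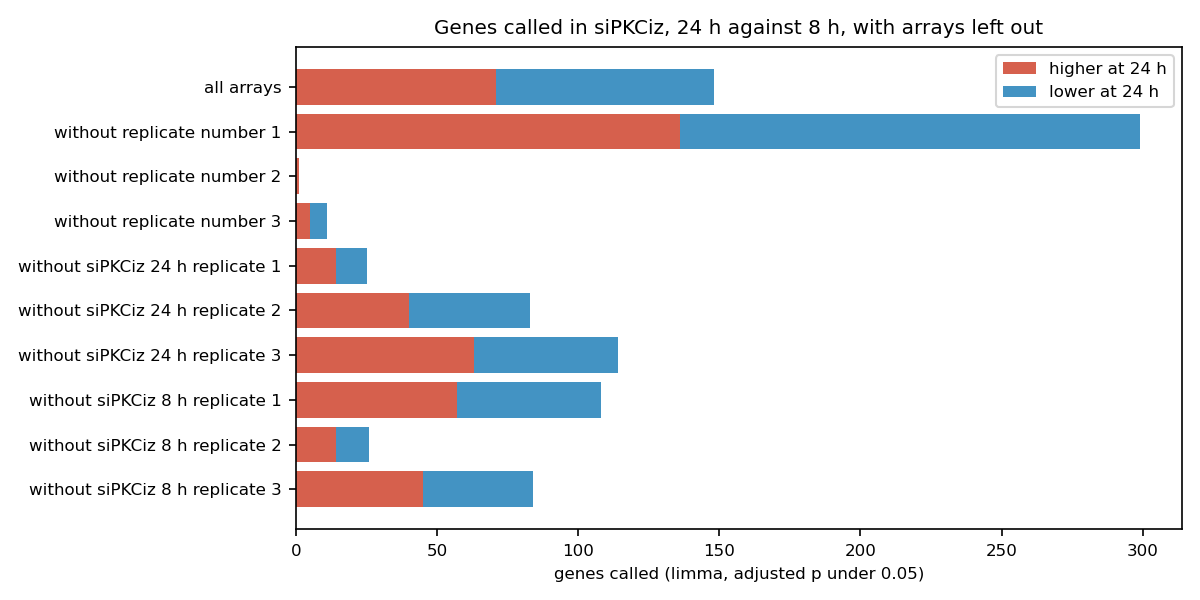
Number of genes called between 8 h and 24 h in siPKCiz cells (limma, adjusted p below 0.05; bars, red higher and blue lower at 24 h) with all 18 arrays, without 1 replicate number in every group, and without 1 array of the groups compared. The count was 148 with all arrays and ranged from 1 without replicate number 2 to 299 without replicate number 1.

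HHLA2, a B7-family ligand of immune checkpoint receptors, had the largest increase among the called genes. It read 263, 211 and 253 at 8 h and 883, 907 and 938 at 24 h, against 166, 161 and 167 in untreated siPKCiz cells. All 24 h arrays thus lay far above every 8 h array, and the log2 change was 1.91 ± 0.122 (limma, adjusted p = 9.30e-08). It was called whichever array or replicate number was left out. MYH15, a myosin heavy chain gene next to it on chromosome 3 among the genes tested (order of genes from RefSeq, GRCh38.p14), rose by 0.61 ± 0.0945 (adjusted p = 0.0046). RefSeq's promoter table (GRCh38.p14) holds 3 windows for HHLA2, and the 250 bases before the start in 1 of them hold a match to the AP-1 element, searched as TGANTCA on both strands and shown in capitals, because this gene leads the comparison. The same letters occurred in 8.06% of all genes in the promoter table, in 7.07% of the genes tested that have an entry, in 11.5% of the called higher genes and in 18.6% of the called lower genes, so a match is a description of the sequence only.
HHLA2, chr3:108296298-108296547, plus strand: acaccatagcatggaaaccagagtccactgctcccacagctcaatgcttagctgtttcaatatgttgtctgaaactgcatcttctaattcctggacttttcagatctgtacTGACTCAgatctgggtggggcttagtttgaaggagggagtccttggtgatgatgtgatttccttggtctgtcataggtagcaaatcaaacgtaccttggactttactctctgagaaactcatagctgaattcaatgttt

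SLN and CST1 had the next largest increases. SLN, which encodes the calcium pump inhibitor sarcolipin, read 1703, 1134 and 1081 at 8 h and 6452, 3231 and 3771 at 24 h. Replicate 1 was highest at both times and the groups did not overlap, with a log2 change of 1.74 ± 0.271 (limma, adjusted p = 0.0046). The untreated arrays read 357, 368 and 401, so SLN was already higher at 8 h (1.77, adjusted p = 0.000535) and rose again. CST1, a secreted cysteine protease inhibitor of the cystatin family, behaved otherwise. It read 869, 323 and 795 without TGFβ, 668, 406 and 852 at 8 h and 2068, 1772 and 2368 at 24 h. The 8 h value was within the untreated range, and the increase from 8 h to 24 h was 1.74 ± 0.321 (adjusted p = 0.0139). Its neighbour CST2, a near-identical cystatin whose probes may share signal with CST1, rose by 0.70 ± 0.136 (adjusted p = 0.0194).

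LCE3D and LCE3E, adjacent genes for late cornified envelope proteins of the skin barrier, were the only called members of 17 cornified envelope and keratinocyte genes measured. Over all genes 0.386% were called higher. LCE3D read 114, 149.9 and 154 without TGFβ, 1081, 652 and 697 at 8 h and 3603, 1572 and 1752 at 24 h, a late change of 1.45 ± 0.268 (limma, adjusted p = 0.0143). LCE3E read 268, 200.5 and 208 at 8 h and 1274, 511 and 475 at 24 h, a change of 1.60 ± 0.312 (adjusted p = 0.0203). In both genes replicate 1 lay highest at 24 h, apart from the other arrays, and the call was kept without that replicate number in every group. Both calls were lost without number 2 or number 3 in every group. Each was kept in 3 of the 6 fits that left out 1 array of the comparison. The LCE3 genes are close paralogs, so their probe sets may not be independent. The median change of the whole list was 0.04, near the -0.01 of all genes.

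**Figure D2:**
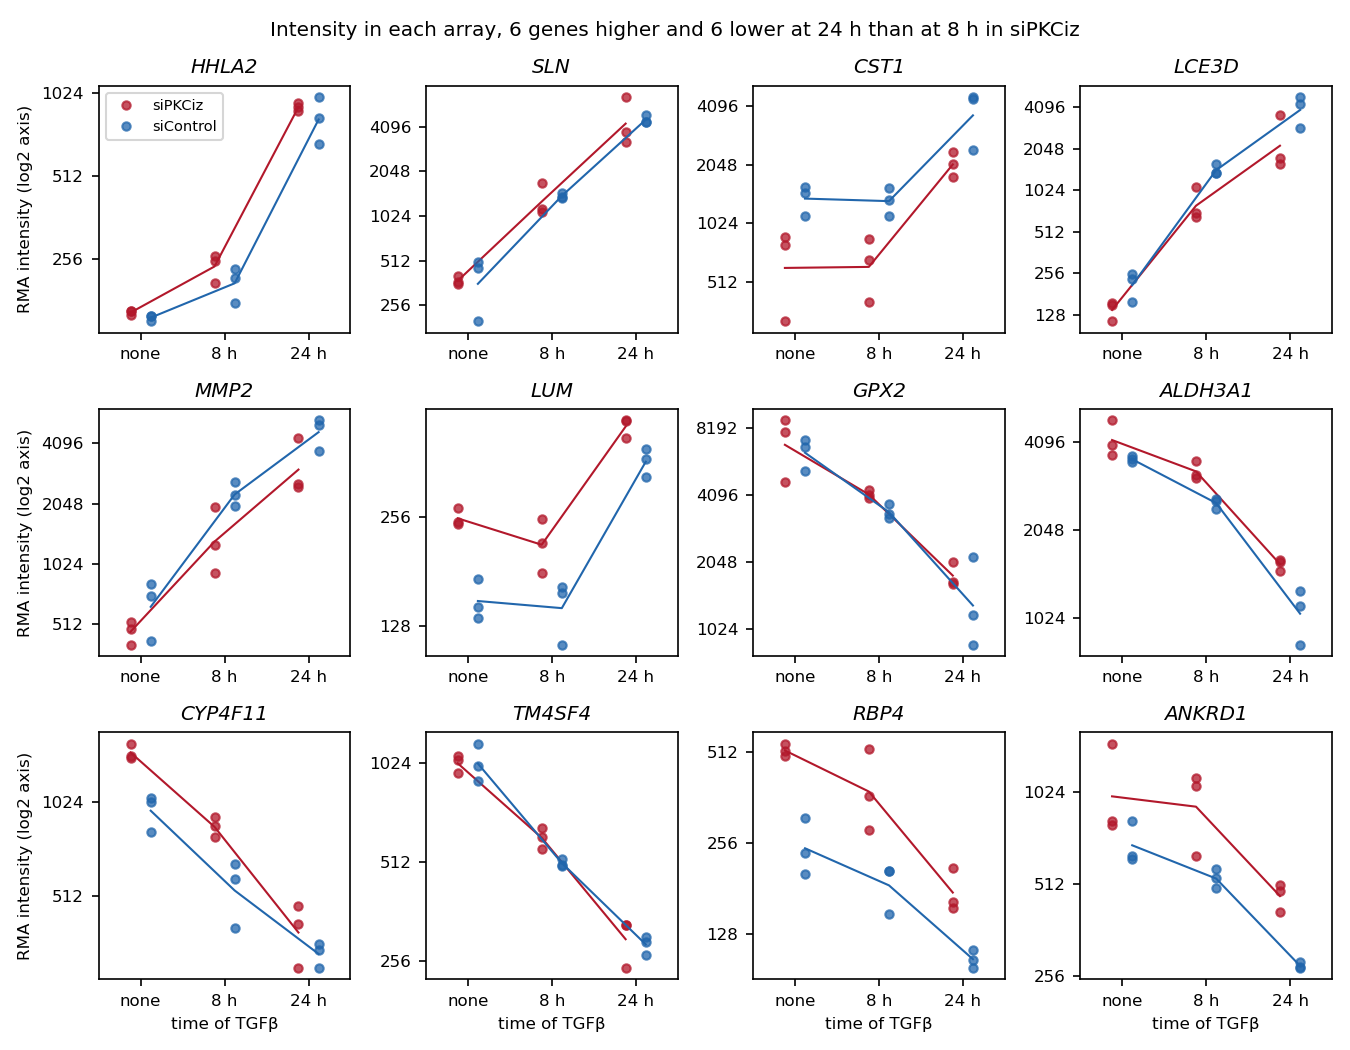
Deposited intensity on a log2 axis of 6 genes higher and 6 lower at 24 h than at 8 h in siPKCiz cells, for each array of siPKCiz (red) and siControl (blue) cells without TGFβ, at 8 h and at 24 h; lines join the means of log2 values. HHLA2 sits between 211 and 263 at 8 h and between 883 and 938 at 24 h in siPKCiz, and GPX2 falls from 3954 or more at 8 h to 2051 or less at 24 h.

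Of 43 collagens and other matrix proteins measured, 3 rose and 0 fell (0.386% and 0.419% of all genes), 40 were not called, and the median change was 0.18 against -0.01 for all genes. Values were positive for 35 of the 43, and 21 had groups that did not overlap with 24 h higher, against 7.84% of all genes. LUM, the collagen-binding proteoglycan lumican, read 179.9, 218 and 254 at 8 h and 471, 474 and 424 at 24 h, a change of 1.08 ± 0.137 (limma, adjusted p = 0.000864). The untreated arrays read 245, 248 and 271, so LUM had not been called at 8 h (-0.24, adjusted p = 0.395). VCAN, the large proteoglycan versican, rose by 0.96 ± 0.166 from 2042, 1651 and 2143 to 4828, 3093 and 3533 (adjusted p = 0.0105). COL5A2, a fibrillar collagen chain, rose by 0.40 ± 0.0759 (adjusted p = 0.0164). The basement membrane chains COL4A1 (0.72, adjusted p = 0.0909) and COL4A2 (0.71, adjusted p = 0.0529) missed the threshold, as did COL1A1 (0.53, adjusted p = 0.183) and FN1 (0.20, adjusted p = 0.598). Against untreated cells 7 of the 43 were higher at 8 h and 15 at 24 h, where 3.13% and 4.65% of all genes were.

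Among 27 matrix proteases and inhibitors, 2 rose and 2 fell, against 0.386% and 0.419% of all genes, with a median of 0.22 against -0.01. MMP2, a gelatinase, read 406, 486 and 528 without TGFβ, 1971, 919.5 and 1278 at 8 h and 4356, 2467 and 2571 at 24 h. It was higher at 8 h by 1.49 (limma, adjusted p = 0.00162) and rose a further 1.19 ± 0.266 by 24 h (adjusted p = 0.0404). MMP7, the secreted protease matrilysin, fell by 0.57 on the log2 scale, from 1901, 1896 and 2299 to 1249.8, 1289 and 1567 (SE 0.12, adjusted p = 0.0295). MMP24, a membrane-type metalloproteinase, fell by 0.70, from 773, 717 and 727 to 355, 545 and 486 (adjusted p = 0.0484). The groups of these 3 metalloproteinases did not overlap. CST1, described above, was the other called increase of this list. Of 18 collagen crosslinking and processing enzymes only LOXL4, a lysyl oxidase, passed, with a change of 0.48 (adjusted p = 0.0435). SULF2, which removes sulfate from heparan sulfate chains outside the cell, rose by 0.89 (adjusted p = 0.0477).

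Of 20 mesenchymal markers, 2 rose and 0 fell, against 0.386% and 0.419% of all genes, and the median was 0.16. These were MMP2 and NT5E, the ecto-nucleotidase CD73, which read 3285, 2587 and 2829.6 at 8 h and 4324, 3590.3 and 4167 at 24 h (0.48 ± 0.101, limma, adjusted p = 0.0311). ITGA11, a collagen-binding integrin chain, was the only called member of 31 integrin and actin cytoskeleton genes. It read 1932, 1408 and 1729 at 8 h and 3839.8, 2579 and 2756 at 24 h, and rose by 0.85 ± 0.154 (adjusted p = 0.013). The transcription factors that drive epithelial-mesenchymal transition did not include a called gene. Among the 14 measured the largest value was 0.43 for TCF4 (adjusted p = 0.0977), while SNAI2 stood at 0.28, TWIST1 at 0.22, ZEB1 at 0.04 and SNAI1 at -0.14. Of 33 epithelial markers only KRT19, a simple-epithelial keratin, fell, from 659.5, 709 and 548 to 370.0, 506 and 477 (-0.51 ± 0.116, adjusted p = 0.0476), and that call was lost without replicate number 1. Uncalled members included CDH1, or E-cadherin (-0.60 ± 0.17, adjusted p = 0.117), the epithelial transcription factor ELF3 (-0.57, adjusted p = 0.0974), KRT8 (-0.29, adjusted p = 0.147) and KRT18 (-0.28, adjusted p = 0.192). Of the 33 values 18 were negative and 15 positive, and the list's median was -0.02. Groups did not overlap with 24 h lower for 6 and with 24 h higher for 3, against 10.5% and 7.84% of all genes.

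The other strongly increased genes came from several families. SRPX, a secreted sushi-repeat protein, read 589, 521 and 647 at 8 h and 1537, 1085 and 1254 at 24 h (1.13 ± 0.173, limma, adjusted p = 0.00443). AGMO, the monooxygenase that cleaves ether lipids, read 768, 717 and 973 without TGFβ, 627, 601 and 759 at 8 h and 1417, 1113 and 1245 at 24 h (0.93 ± 0.132, adjusted p = 0.00284). FLRT2, a leucine-rich repeat membrane protein of cell guidance, read 394, 365 and 479 at 8 h and 808, 699 and 742 at 24 h (0.87 ± 0.117, adjusted p = 0.00166). None of these 3 had been called against untreated cells at 8 h, and their 24 h arrays lay above all 8 h and untreated arrays. DOCK2, an activator of the small GTPase Rac, had been higher at 8 h (0.76, adjusted p = 0.0353) and rose by a further 1.01 ± 0.211, from 345, 237 and 240.3 to 641, 543 and 461 (adjusted p = 0.0288). R3HDML rose by 1.46 ± 0.33 (adjusted p = 0.0446) and SYT13, a synaptotagmin, by 0.93 ± 0.16 (adjusted p = 0.0104).

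Fibroblast markers were set beside these values, since such cells would carry matrix transcripts. Their list of 10 held LUM as its only called gene, all 10 values were positive with a median of 0.19 (8 of 10 without replicate number 3), and their summed intensity was 1244 to 1328 at 8 h and 1603 to 1710.5 at 24 h. Much of the rise in this sum lay in LUM, which is also in the matrix list and read 179.9, 218 and 254 at 8 h and 471, 474 and 424 at 24 h. For 5 of the 10 the groups did not overlap with 24 h higher, against 7.84% of all genes. Among the uncalled members PDGFRA stood at 0.51, PDGFRB at 0.27, COL3A1 at 0.18 and DCN at 0.03. The endothelial markers summed to 620.0 to 649 at 8 h and 656 to 669.9 at 24 h, and the leukocyte markers to 1547 to 1642 and 1413 to 1604. In these lists 0 genes were called of 8 and of 9, where 0.805% of all genes were. No member of the endothelial list, 1 of the leukocyte list and 2 of the fibroblast list lay above the array median on all 6 arrays. The part of other cells in the matrix values was not tested.

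NRF2 target genes had the lowest median of the lists. NRF2 is a transcription factor that is held in check by KEAP1 and drives glutathione, thioredoxin and NADPH-producing enzymes through antioxidant response elements. A549 cells carry a KEAP1 mutation, and their NRF2 programme is known to be high. Of 20 targets measured, 5 fell and 0 rose, against 0.419% and 0.386% of all genes, and the median was -0.31 against -0.01. All 20 values were negative, and 14 had groups that did not overlap with 24 h lower, against 10.5% of all genes. Under quantile normalisation the median was -0.20 and 19 of the 20 were negative.

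GPX2, a glutathione peroxidase, read 4659, 7875 and 8845 without TGFβ, 4089, 3954 and 4288 at 8 h and 2051, 1667 and 1633 at 24 h. The late groups were clearly apart, with a change of -1.21 ± 0.249 (limma, adjusted p = 0.0268), though this call was lost when any array of the comparison was left out. ALDH3A1, an aldehyde dehydrogenase that detoxifies lipid aldehydes, read 3161, 3086 and 3512 at 8 h and 1486, 1594 and 1614 at 24 h, a change of -1.05 ± 0.122 (adjusted p = 0.000469). GCLM, the modifier subunit of the enzyme that makes the glutathione precursor, read 2573, 2566 and 2375 at 8 h and 1435, 1899 and 1747 at 24 h, a change of -0.57 ± 0.101 (adjusted p = 0.0111). AKR1C2, an aldo-keto reductase, fell by 0.57 on the log2 scale (adjusted p = 0.013), but the AKR1C genes are near-identical and AKR1C1 stood at -0.08 and AKR1C3 at -0.32. SRXN1, sulfiredoxin, fell by 0.43 (adjusted p = 0.0254). The classical targets NQO1 (-0.33, adjusted p = 0.206), TXNRD1 (-0.37, adjusted p = 0.0518), SLC7A11 (-0.30, adjusted p = 0.292) and HMOX1 (-0.27, adjusted p = 0.484) missed the threshold. Set against untreated cells, 5 of the 20 were lower at 8 h and 17 at 24 h, where 3.35% and 6.09% of all genes were, and HMOX1 was higher at 8 h (0.58, adjusted p = 0.02).

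**Figure D3:**
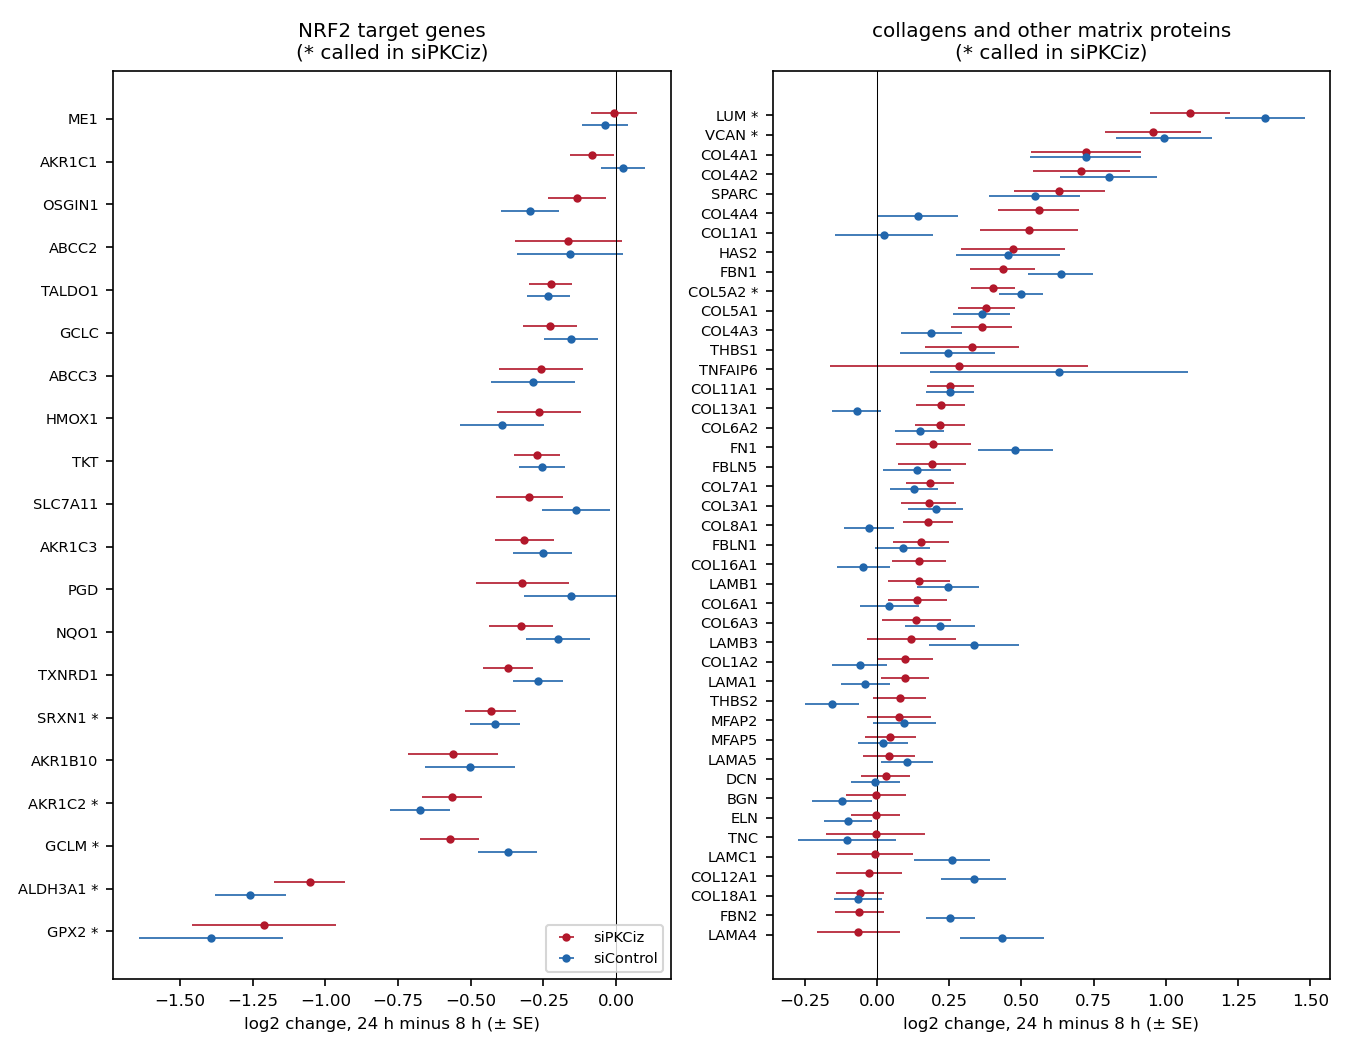
Change from 8 h to 24 h on a log2 scale (points, with bars for ± 1 SE) of each measured NRF2 target gene and each collagen or other matrix protein, in siPKCiz (red) and siControl (blue) cells; an asterisk marks genes called in siPKCiz. All 20 NRF2 targets lie at or left of zero in siPKCiz, and 35 of 43 matrix genes lie to the right of it.

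Promoters of the 2 called NRF2 targets with a matching motif are shown because these members fell together. RefSeq's promoter table (GRCh38.p14) held 15 of the 20 targets, and an entry for 4 of the 5 called ones. The 250 bases before the start were searched on both strands for the antioxidant response element core TGACNNNGC, which can overlap an AP-1 element. It occurred in 5 of those 15 genes (33.3%), in 2 of the 4 called ones, in 15.1% of all genes tested that have an entry and in 13.2% of all genes in the table. Among called genes with an entry it occurred in 13.6% of the lower and 9.62% of the higher ones. Capitals mark the match, which lies on the opposite strand in both. The match says nothing on binding, which was not measured.
GPX2, chr14:64942746-64942995, minus strand: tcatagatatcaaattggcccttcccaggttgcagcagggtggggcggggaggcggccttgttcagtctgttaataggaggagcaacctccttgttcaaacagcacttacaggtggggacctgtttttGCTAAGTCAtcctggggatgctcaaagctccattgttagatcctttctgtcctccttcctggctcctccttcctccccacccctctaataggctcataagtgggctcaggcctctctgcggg
GCLM, chr1:93909431-93909680, minus strand: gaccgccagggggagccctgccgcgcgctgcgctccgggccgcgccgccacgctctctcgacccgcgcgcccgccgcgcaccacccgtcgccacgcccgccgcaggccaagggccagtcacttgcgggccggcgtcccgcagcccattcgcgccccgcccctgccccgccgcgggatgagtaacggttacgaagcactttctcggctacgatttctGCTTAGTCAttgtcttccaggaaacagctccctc

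Among the other large decreases, CYP4F11, a fatty acid omega-hydroxylase, read 1436, 1577 and 1423 without TGFβ, 857, 917 and 792 at 8 h and 302, 476 and 418 at 24 h (-1.12 ± 0.162, limma, adjusted p = 0.00289). It was lower at 8 h (-0.79, adjusted p = 0.00493) and fell again. RBP4, the plasma carrier of retinol, read 283, 524 and 365 at 8 h and 156, 212 and 164 at 24 h, near the array median at the later time (-1.10 ± 0.189, adjusted p = 0.0103). TBXAS1, thromboxane synthase, fell by 0.84 (adjusted p = 0.00733). APOH, an abundant liver plasma protein, read 809.9, 774 and 787 without TGFβ, 341, 304 and 419 at 8 h and 126, 207 and 206 at 24 h (-1.01 ± 0.188, adjusted p = 0.0152). It was the only called member of 22 liver-type plasma protein genes, whose median was -0.12, where 0.419% of all genes were called lower. TM4SF4, a tetraspan membrane protein, was the only called member of 19 mucous and intestinal-type genes, at 610.2, 651 and 562 at 8 h and 245, 330.3 and 330.4 at 24 h (-1.02 ± 0.112, adjusted p = 0.000324).

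The remaining large decreases are given singly. TFPI2, a secreted Kunitz-type protease inhibitor, read 3001, 3347 and 3629 without TGFβ, 3961, 4243 and 4473 at 8 h and 2380.4, 2205 and 2783 at 24 h (-0.79 ± 0.119, limma, adjusted p = 0.0042). CNTN1, the neural adhesion protein contactin 1, read 3299, 4073 and 4098 without TGFβ, 2381, 2609.8 and 2458 at 8 h and 1556, 1432 and 1398 at 24 h (-0.76 ± 0.116, adjusted p = 0.0042). CNTN1 had thus fallen by 8 h and fell again, while TFPI2 was called against untreated cells at 24 h (-0.44, adjusted p = 0.0213) and stood at 0.35 at 8 h (adjusted p = 0.0978). GKN2, a gastrokine of the stomach lining, read 247, 344 and 167 at 8 h and 129, 107 and 110.2 at 24 h, close to the 136, 128 and 169 of untreated cells (late change -1.07 ± 0.225, adjusted p = 0.0288). STK32B, a serine/threonine kinase, fell by 1.11 on the log2 scale (adjusted p = 0.0138), BCAS1 by 1.09 (adjusted p = 0.0268) and CLMN by 0.82 (adjusted p = 0.025).

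Several called decreases returned genes that had been higher at 8 h to lower levels. PREX1, an exchange factor for the small GTPase Rac, read 318, 386 and 299 without TGFβ, 603, 487 and 514 at 8 h and 208, 353 and 325 at 24 h. It was higher at 8 h by 0.68 (limma, adjusted p = 0.018) and then fell by 0.89 (adjusted p = 0.0164), and at 24 h it stood at -0.21 against untreated cells (adjusted p = 0.506). The circadian repressor CRY1 read 688, 739 and 778 without TGFβ, 1052, 1059.8 and 1037 at 8 h and 750.2, 749.5 and 685 at 24 h (late change -0.53 ± 0.116, adjusted p = 0.0369). The immediate early gene FOSB read 156, 163 and 151 at 8 h and 126, 117 and 105 at 24 h (-0.43, adjusted p = 0.0315), against 99.4, 98.4 and 87.4 without TGFβ. All FOSB readings lay near or below the array median. NDRG1, a stress-inducible gene in the hypoxia list, fell by 0.33, from 1844, 1893 and 1816 to 1504, 1476 and 1440.0 (adjusted p = 0.0229), and this call was lost without replicate number 1. It was still higher than untreated at 24 h (0.23, adjusted p = 0.0296). In each of these 4 genes all 8 h arrays lay above all 24 h arrays. The late calls of CRY1, FOSB and NDRG1 were lost when any array of the comparison was left out.

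The opposite course was seen for NFKBIZ, a nuclear IκB-family regulator. It read 457, 521 and 723 without TGFβ, 370.0, 317 and 342 at 8 h and 774, 484 and 574 at 24 h. It was lower at 8 h (-0.70, limma, adjusted p = 0.0165) and rose by 0.81 ± 0.171 afterwards (adjusted p = 0.0311). Its partner in the list of 24 NF-kB targets and cytokines was LIF, a cytokine of the interleukin-6 family, which fell by 0.39 (adjusted p = 0.0333), a call lost without replicate number 1. NR1D2, the circadian nuclear receptor REV-ERBβ, read 602, 772 and 854 at 8 h and 1337, 1070.1 and 978 at 24 h (0.61 ± 0.137, adjusted p = 0.0452), and it too lost its call without that number. The clock list held 1 increase and 1 decrease among 17 genes. Over all genes 0.386% were called higher and 0.419% lower.

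The comparisons with untreated siPKCiz cells share arrays with the late comparison, so the course of the leading genes against untreated cells is a description and no independent support. At 8 h, where 6.48% of all genes differed from untreated cells (3.13% higher and 3.35% lower), 6 of the 15 most increased genes were already higher. Of the 15 most decreased, 6 were lower at 8 h and 1, PREX1, was higher. At 24 h 10.7% of all genes differed from untreated cells, 4.65% higher and 6.09% lower. ANKRD1, a classic YAP target, had not been called against untreated cells at 8 h (-0.11, adjusted p = 0.864). It read 1477, 825 and 801 without TGFβ, 631, 1138 and 1075 at 8 h and 414, 485 and 508 at 24 h, a late change of -0.97 ± 0.21 (limma, adjusted p = 0.0335). The 26 YAP and TEAD targets held ANKRD1 and the higher NT5E as their only calls and had a median of -0.10. Between 8 h and 24 h, 0.419% of all genes were called lower and 0.386% higher.

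Direct early targets of TGFβ held no called gene between 8 h and 24 h, where 0.805% of all genes were called. The 33 measured had a median of -0.10, and 21 were higher than untreated at 8 h and 17 at 24 h (3.13% and 4.65% of all genes). SMAD7, the inhibitory SMAD, stood at 0.97 over untreated at 8 h (limma, adjusted p = 0.000454) and -0.22 between the times, and PMEPA1, a feedback inhibitor, at 1.21 (adjusted p = 0.000106) and 0.04. ANGPTL4, a secreted lipase inhibitor, had the largest late value in this list. It read 371, 369 and 350.1 without TGFβ, 3628, 1536 and 1777 at 8 h and 1398, 992 and 1069 at 24 h, so that the 24 h arrays overlapped none of the 8 h arrays, yet the spread was wide (-0.91 ± 0.37, adjusted p = 0.316). SMAD3, the receptor-activated SMAD, read 4073, 3676 and 3131 at 8 h and 2760.5, 2467 and 2784 at 24 h (-0.44 ± 0.104, adjusted p = 0.0554). No gene of the 19 receptors and SMADs was called.

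**Figure D4:**
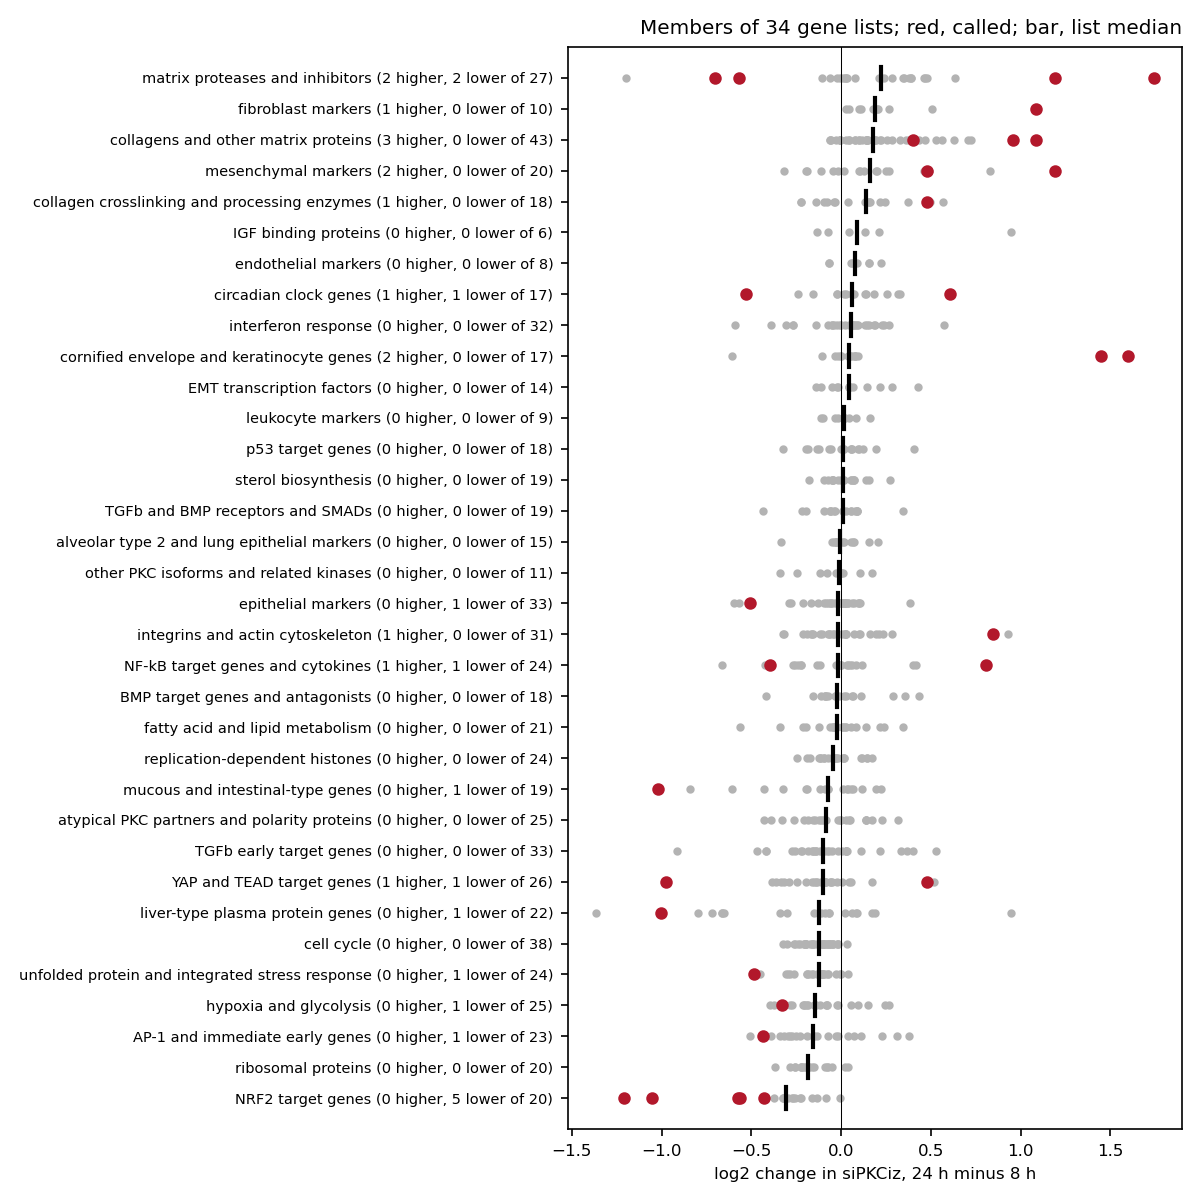
Change from 8 h to 24 h in siPKCiz cells on a log2 scale for every measured member of 34 gene lists (points; red, called at adjusted p below 0.05), with the list median as a black bar and the numbers called beside each name. NRF2 target genes have the lowest median, -0.31, and matrix proteases and inhibitors the highest, 0.22.

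Of 38 cell cycle genes 0 were called, where 0.805% of all genes were. Among the 38, 37 were negative and the median was -0.12, which became -0.08 with 31 negative under quantile normalisation. RRM2, a subunit of ribonucleotide reductase, had the largest value, at 1702, 2046 and 1904 at 8 h and 1534, 1486 and 1484 at 24 h (-0.32 ± 0.118, limma, adjusted p = 0.254). The 20 ribosomal protein genes had a median of -0.18 and 18 negative values, or -0.09 and 16 under quantile normalisation, with 0 called. Of 24 genes of the unfolded protein and integrated stress responses 23 were negative, with 19 under quantile normalisation, and 1 was called. This was PSAT1, an enzyme of serine synthesis, which fell from 2856, 3369.9 and 3037 to 1959, 2239 and 2427 (-0.49 ± 0.0999, adjusted p = 0.0268). In siControl cells the same lists had medians of 0.05, -0.05 and -0.07, and 0 of their genes differed between arms by the test below.

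Across the 34 lists, 729 of 787 entries were measured, and 17 lists held no called gene. Of all genes 0.805% were called, and at that share a list of such a size would mostly hold none. The 25 atypical PKC partners and polarity proteins were among these, with a median of -0.08 and a largest value of -0.43 for LLGL2, a polarity protein that is phosphorylated by atypical PKC (adjusted p = 0.183 in limma). The 11 other PKC isoforms and related kinases held PRKCH as the most changed member (-0.34, adjusted p = 0.364). The remaining lists without a call, with their most changed member, included the interferon response (OAS1, -0.59, adjusted p = 0.0597), sterol synthesis (LSS, 0.27), fatty acid metabolism (SLC27A2, -0.56), p53 targets (TP53INP1, 0.40), BMP targets and antagonists (FST, 0.43), alveolar type 2 markers (FOXA1, -0.33) and histones (H2BC14, -0.24). IGFBP5, of the 6 IGF binding proteins, read 830.5, 164 and 231 at 24 h against 153, 156 and 185 at 8 h, so its value of 0.94 rested on 1 array. Of the 148 called genes, 28 were in any list, and the lists held 693 of the 18377 genes tested. The lists were chosen with earlier results of these data known, so this share is a description only.

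The same comparison in siControl cells, which shares no array with the one in siPKCiz cells, called 443 genes (2.41%), 241 higher (1.31%) and 202 lower (1.1%). Of the 148 genes called in siPKCiz, 146 had the same sign in siControl and 98 were called there in the same direction, which is 66.2% of the siPKCiz list and 22.1% of the siControl list. The 71 higher genes had a median of 0.61 in siPKCiz and 0.59 in siControl, and the 77 lower genes -0.55 and -0.45. The genes called in siControl had medians of 0.49 for the higher and -0.47 for the lower ones there and 0.32 and -0.33 in siPKCiz. In siControl the NRF2 targets had a median of -0.26 with 4 called lower, and the matrix proteins 0.19 with 5 called higher. The matrix proteases and inhibitors had 0.15 there with 7 higher and 1 lower, and the mesenchymal markers 0.16 with 5 higher. Over all 18377 genes, which are not independent replicates, Pearson's r between the arms was 0.549 and Spearman's rho 0.379.

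No gene differed between the arms in its change from 8 h to 24 h when the difference itself was tested (limma interaction, 0 of 18377 called, 0%, smallest adjusted p 0.998). An unadjusted p below 0.05 was found for 822 genes (4.47%), no more than that threshold gives where no gene differs. The median SE of such a difference was 0.141 on the log2 scale, against 0.0996 for the change within an arm. HHLA2 changed by 1.97 in siControl, and the difference of -0.05 had a 95% interval from -0.41 to 0.31. For SLN the siControl change was 1.71 and the interval of the difference -0.77 to 0.84. GPX2 changed by -1.39 and ALDH3A1 by -1.26 in siControl, with intervals from -0.56 to 0.92 and from -0.16 to 0.57. CYP4F11 stood at -0.67 in siControl, with an interval from -0.93 to 0.03, and NALCN, a sodium leak channel, at -1.06 against -0.61 in siPKCiz, with an interval from 0.13 to 0.77 before adjustment. Without replicate number 1 in every group 5 genes had a lower late change in siPKCiz than in siControl, namely HS3ST3B1, IGFBP5, LCE3E, SLC6A13 and TNFAIP6.

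**Figure D5:**
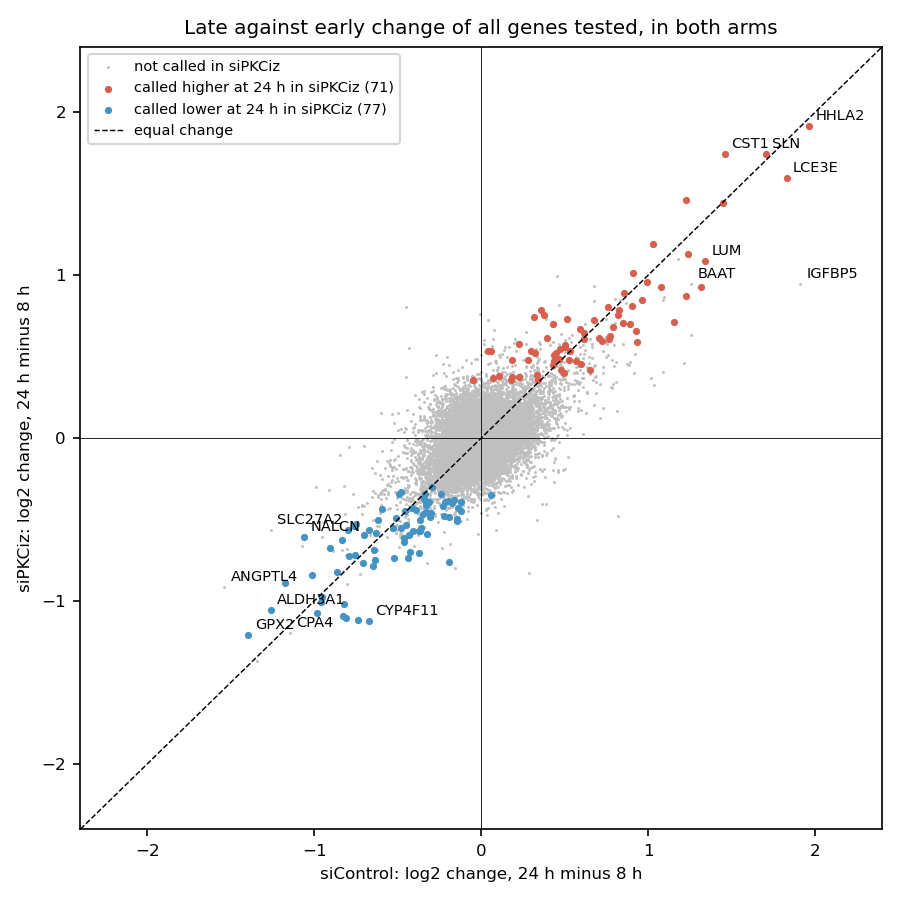
Change from 8 h to 24 h on a log2 scale in siControl (x axis) and siPKCiz (y axis) for the 18377 genes tested (grey), with the 71 genes called higher (red) and 77 called lower (blue) in siPKCiz; the dashed line marks equal change. Of the 148 coloured points, 146 have the same sign in both arms.

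Genes with the largest late changes in siControl that were not called in siPKCiz had the same sign there. MMP1, interstitial collagenase, read 233, 182 and 332 at 8 h and 629.8, 248 and 336 at 24 h in siPKCiz, where replicate 1 alone was high and the groups overlapped (0.63 ± 0.303, limma, adjusted p = 0.414, against 1.26 in siControl). AGR2, a secretory disulfide isomerase, stood at -0.84 ± 0.26 (adjusted p = 0.159) against -1.43. CPA4, a carboxypeptidase, stood at -1.20 ± 0.285 (adjusted p = 0.0539) against -1.15. BAAT, a bile acid conjugating enzyme, stood at 0.94 (adjusted p = 0.146) against 1.26, and complement C3 at -0.66 (adjusted p = 0.178) against -1.07. None of these differences between arms passed the test.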

How the data were processed

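Whole-transcript Affymetrix arrays of A549 cells were analysed, 18 arrays in 6 groups of 3. The deposited values are RMA-normalised intensities on a linear scale, made by the authors with Partek per the submitters' processing notes, which give no versions. The log2 of each intensity was taken without further normalisation. Probe sets were named through the platform annotation: 19310 had 1 symbol, 1752 several and 7807 none. The brightest probe set stood for a gene. limma 3.58.1 (R 4.3.3) fitted 6 group means to all 18 arrays with eBayes, and 7 comparisons were adjusted by Benjamini-Hochberg over 18377 genes. The fit was tested on simulated data. The precision is limited by the number of arrays. Genes named are PRKCI, PRKCZ, the 15 highest and 15 lowest called genes, up to 4 called members of each list or its most changed member, and the 10 highest and 10 lowest in siControl. Others (among them MYH15, CST2, SRXN1 and uncalled list members) were chosen after their values were seen. The genes and lists were chosen with earlier results of these data known. Alternatives were the normalisation, a filter on dim probe sets, the moderation, array weights, a fold threshold, the samples fitted, a replicate block and leaving out arrays.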

Additional observations from a re-analysis of the deposited data

How the results depend on the processing

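The number of genes called in siPKCiz between 8 h and 24 h was 148 and stayed within 1.5 times that under a filter on dim probe sets, quantile normalisation (162), median centring (188), trend and robust moderation, and all probe sets. It became 388 with array weights, 27 with only the 6 arrays compared and 1 when tested against a fold change of 1.5. The cause of these changes was not tested. Leaving out replicates gave 1 to 299. The 443 genes in siControl became 211 with its own arrays and 1 against a 1.5-fold change, with 11 to 670 when replicates were left out. The difference between arms had 0 calls in every setting except without replicate 1, which gave 5, for a range of 0 to 5 when replicates were left out. PRKCZ silencing was -1.04 at 8 h and -1.10 at 24 h and not called against a 1.5-fold change; its range without replicates was -1.43 to -0.85 and -1.37 to -0.94. With a replicate block, 77 genes were called in siPKCiz, 75 of them shared with the 148, and 262 in siControl. Same-numbered siPKCiz arrays correlated at 0.169, 0.0669 and 0.258 in their deviations from the group mean. Each 24 h siPKCiz array correlated best with the 8 h array of its own number. In siControl the values were 0.143, -0.201 and 0.175, and only replicate 1 matched its own number best. The labels do not say whether the numbers pair the samples, and the main fit did not pair them. No called gene among those named reversed. Leaving out arrays could not have reversed one, since the 2 groups of every called gene do not overlap. The uncalled PRKCZ change of 0.00 became -0.0265 under quantile normalisation and -0.0282 under median centring, and ran from -0.15 to 0.25 with replicates left out. The uncalled H2BC14 change ran from -0.47 to 0.00110. The number of arrays limits these counts.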

Other observations

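Called genes outside the lists are given singly here, chosen after their values were seen and with no list or test behind them. POP1, a subunit of RNase MRP and RNase P, stood at -0.51 ± 0.0947 (limma, adjusted p = 0.0143), falling from 513, 513 and 445 at 8 h to 366, 329 and 337 at 24 h. DDX21, a nucleolar helicase, fell from 2259.8, 2429.9 and 2249 to 1594, 1707 and 1923, and DDX31, NPM3, RRP12 and NOL10 fell by 0.46, 0.45, 0.39 and 0.30 on the log2 scale. ODC1, the first enzyme of polyamine synthesis, fell by 0.43, and MTHFD1L, a mitochondrial folate enzyme, by 0.49.

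The adjacent complement genes C1R and C1S, which encode the serine proteases of the classical pathway, fell by 0.58 and 0.54 in siPKCiz (limma, adjusted p = 0.034 and 0.0268), and by 0.63 and 0.76 in siControl. They were 1 of 4 pairs of neighbouring tested genes called in the same direction, beside LCE3E with LCE3D, CST1 with CST2 and HHLA2 with MYH15. Among the increases, PDGFC, a platelet-derived growth factor, rose from 328, 368 and 340.1 to 600.2, 501 and 603, NID1, the basement membrane protein nidogen 1, from 466, 540.2 and 598 to 895, 940.2 and 811, and PXDN, a matrix peroxidase that crosslinks collagen IV, from 508, 513 and 623 to 765, 801 and 821. The transporter ABCG2 fell from 1183, 1238 and 1118 to 601, 782 and 805 (-0.70, adjusted p = 0.00751), and the epithelial sodium channel chain SCNN1A from 206, 231 and 222 to 124, 158 and 154 (-0.60, adjusted p = 0.00703).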
